A study of Gallus gallus with 2 samples.

Results

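Barcodes rich in *ADIPOQ*, the gene of the fat cell hormone adiponectin, that also carried pericyte genes were taken from 2 single-cell RNA-seq libraries of chicken peritoneum. A barcode was a member when it had more than 1000 detected genes, at least 5 unique molecular identifiers (UMIs, counted RNA molecules) of *ADIPOQ*, and a UMI of at least 2 of the 5 genes *RGS5*, *KCNJ8*, *ABCC9*, *PDGFRB* and *RPRM*. Members made up 1409 of the 11330 barcodes past the limit on genes, called kept barcodes here. The library labelled HVP (the HVP library) held 798 members among 5866 kept barcodes (13.6%, 95% Clopper-Pearson interval 12.7 to 14.5%), and the library labelled Normal (the Normal library) held 611 among 5464 (11.2%, 10.4 to 12.05%). Members were chosen by measured UMIs of these 6 genes, so their levels against the other kept barcodes are a description and carry no test.

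HVP stands for hyperpigmentation of the visceral peritoneum, the membrane over the abdominal organs. Per the study's methods the peritoneum came from 10 Huiyang Bearded chickens with HVP and 10 with a normal peritoneum, all aged 40 days, and was digested with collagenase. There was 1 library per group and no replicate, so every interval covers counting error only and a ratio between the libraries compares those libraries, not the conditions. The labels go against each other: the library titled HVP carries files named for the normal group, and the library titled Normal carries files named for HVP. Groups follow the titles throughout. *PMEL*, a melanosome protein gene, had 7.98 counts per 1000000 UMIs (CPM) in the other kept barcodes of the library labelled HVP and 36.0 CPM in those of the library labelled Normal, and *MLANA*, also a melanosome gene, had 5.398 CPM in HVP and 10.2 CPM in Normal. The other 8 melanocyte genes listed had HVP over Normal ratios of 0.750 to 1.67 in the same barcodes. The cluster led by melanocyte genes held 92 HVP and 62 Normal barcodes. Which of the labels is right was not tested, and each direction between the libraries holds only as labelled.

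Pericytes are mural cells wrapped around capillaries inside the vessel's basement membrane. They answer PDGF from endothelial cells through *PDGFRB*, carry the ATP-sensitive potassium channel built from *KCNJ8* and *ABCC9*, and express *RGS5*, a brake on G protein signalling. Adiponectin is the hormone that mature adipocytes secrete in large amounts, and adipocytes are marked besides it by the lipid droplet coat protein perilipin, by fat synthesis enzymes and by the transcription factors *PPARG* and *CEBPA*. In mammals, mural cells of fat tissue have been described as one source of adipocytes. The question put to the data was which pericyte genes and which adipocyte genes the *ADIPOQ*-rich barcodes carry, each library apart.

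The libraries held 36100448 UMIs in 7157 barcodes labelled HVP and 26865572 UMIs in 6981 barcodes labelled Normal. Members had a median of 4908 UMIs and 1902 genes in the HVP library, against 5466 UMIs and 2001 genes in the other kept barcodes. In the Normal library members had 3581 UMIs and 1567 genes, against 3855 UMIs and 1623 genes in the others. The median share of mitochondrial UMIs was 5.06% in members and 4.02% in the others of the HVP library, and 4.90% in members and 3.96% in the others of the Normal library. The libraries shared 14 barcode sequences, of which 4 were members in the HVP library and 1 in the Normal library.

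The 6 genes of the rule set the members apart by construction, and their values are given for size only. *ADIPOQ* counts per member ran from 5 to 60 with a median of 14 UMIs in the HVP library and from 5 to 41 with a median of 10 in the Normal library. *RGS5* ran from 0 to 103 with a median of 27 UMIs in the HVP library, and from 0 to 85 with a median of 16 in the Normal library. The members of both libraries overlapped over most of these ranges. Summed over barcodes, *ADIPOQ* reached 3167 CPM in members and 48.0 CPM in the other kept barcodes of the HVP library, and 2733 CPM in members and 109.9 CPM in the others of the Normal library. The ratios were 65.9-fold (62.5 to 69.7) in the HVP library and 24.9-fold (23.7 to 26.04) in the Normal library. Members held 90.2% of the 14743 *ADIPOQ* UMIs in kept barcodes labelled HVP, and 74.9% of the 9748 labelled Normal.

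**Figure D1:**
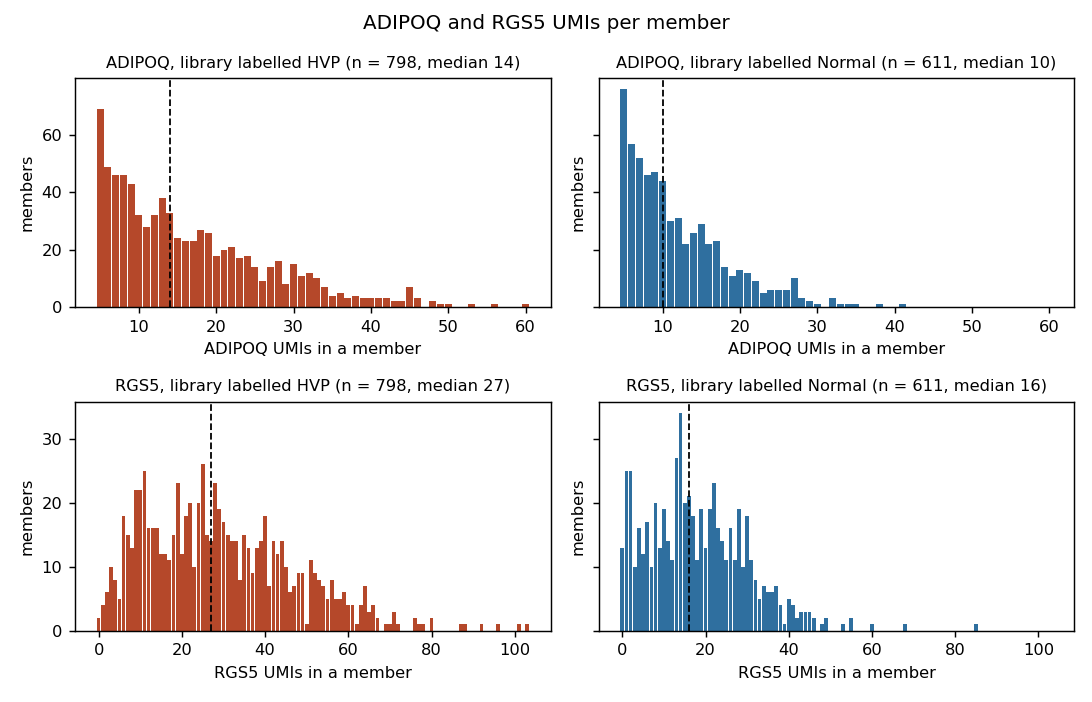
UMIs of *ADIPOQ* (upper panels) and of *RGS5* (lower panels) per member, with the number of members on the vertical axis, for the library labelled HVP (left, 798 members) and the library labelled Normal (right, 611 members). Dashed lines mark the medians, which are 14 UMIs in HVP and 10 in Normal for *ADIPOQ*, and 27 UMIs in HVP and 16 in Normal for *RGS5*. *ADIPOQ* counts are most frequent at the limit of 5 UMIs and become rarer above it, while *RGS5* counts spread widely, with few members at 0.

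Of the pericyte genes of the rule, *RGS5* and *KCNJ8* were in most members and *RPRM* in few. *RGS5* had a UMI in 99.7% of members of the HVP library and 97.9% of members of the Normal library, and *KCNJ8* in 90.6% in HVP and 84.9% in Normal. *PDGFRB* had a UMI in 69.5% in HVP and 61.5% in Normal, *ABCC9* in 53.9% in HVP and 43.7% in Normal, and *RPRM*, a cell cycle arrest gene, in 13.3% in HVP and 12.1% in Normal. Members over the other kept barcodes, *RGS5* was 23.4-fold in the HVP library and 12.1-fold in the Normal library. The same ratio was 34.6 in HVP and 16.3 in Normal for *KCNJ8*, 19.8 in HVP and 12.5 in Normal for *ABCC9*, 8.75 in HVP and 6.42 in Normal for *PDGFRB* and 23.5 in HVP and 19.4 in Normal for *RPRM*. In the HVP library 162, 297, 300 and 39 members carried 2, 3, 4 and 5 of the 5 genes, and in the Normal library 197, 245, 140 and 29.

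Most barcodes rich in *ADIPOQ* met the pericyte limit as well. Both limits are parts of the rule, so their overlap is a description. Of the other kept barcodes, 723 of 5068 in HVP and 732 of 4853 in Normal met the pericyte limit. Of 850 kept barcodes with at least 5 *ADIPOQ* UMIs labelled HVP, 93.9% were members, 41 carried 1 of the 5 pericyte genes and 11 carried none. Of 686 labelled Normal, 89.1% were members, 68 carried 1 gene and 7 none. Barcodes with the pericyte genes were less often rich in *ADIPOQ*: 458 kept barcodes labelled HVP and 227 labelled Normal carried at least 2 of the pericyte genes with no *ADIPOQ* UMI, and 265 labelled HVP and 505 labelled Normal carried them with 1 to 4. At the limit itself, 69 members had exactly 5 *ADIPOQ* UMIs and 53 barcodes with the pericyte genes had exactly 4 in the HVP library, against 76 members and 77 such barcodes in the Normal library.

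On the GRCg7b assembly, by the RefSeq gene table, *ADIPOQ* lies on chromosome 9, 4886000 to 4890655, *RGS5* on chromosome 8, 3692757 to 3699845, and *PDGFRB* on chromosome 13, 12851433 to 12876615. *ABCC9* (chromosome 1, 66924027 to 66999192) and *KCNJ8* (chromosome 1, 67006399 to 67014250), which encode both kinds of subunit of the channel, lie 7206 bases apart.

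Pericyte markers that the rule did not use were mostly higher in members. Of 40 listed markers 31 were in the files. A gene was counted when its share over all kept barcodes would give members at least 10 UMIs, and of the counted ones 17 of 30 were at least 2-fold higher and 7 at least 2-fold lower in the HVP library, and 16 higher and 3 lower of 28 in the Normal library. Over all genes counted, 9.44% were at least 2-fold higher and 21.9% at least 2-fold lower in members of the HVP library, and 6.29% higher and 16.5% lower in members of the Normal library. The pericyte list had a median log2 ratio of 1.30 in the HVP library and 1.04 in the Normal library, where all counted genes had medians of -0.28 in HVP and -0.21 in Normal.

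*ITGA7*, a laminin-binding integrin chain, had 253 CPM in members and 13.9 CPM in the other kept barcodes of the HVP library, and 185 CPM in members and 31.2 CPM in the others of the Normal library. Members over others, this is 18.2-fold (16.3 to 20.5) in the HVP library and 5.92-fold (5.26 to 6.65) in the Normal library. *CSPG4*, the NG2 proteoglycan that classically marks pericytes, had 325 CPM in members and 32.4 CPM in the other kept barcodes of the HVP library, and 218 CPM in members and 48.2 CPM in the others of the Normal library. The ratio came to 10.0-fold (9.24 to 10.9) in the HVP library and 4.52-fold (4.08 to 5.002) in the Normal library. *ANGPT1*, the angiopoietin that mural cells send to endothelium, was 9.38-fold in the HVP library and 3.94-fold in the Normal library. Next to these stood *HEYL*, a Notch target (10.5 in HVP and 4.40 in Normal), *GUCY1A1*, a subunit of the nitric oxide receptor (11.9 in HVP and 4.67 in Normal), and *CYGB*, the globin of pericytes and stellate cells (8.68 in HVP and 5.50 in Normal). *EDNRA*, the endothelin receptor of contractile cells (7.24 in HVP and 4.83 in Normal), the T-box factor *TBX2* (7.69 in HVP and 4.07 in Normal), *ARHGAP42* (4.12 in HVP and 3.72 in Normal) and the adhesion molecule *MCAM* (4.07 in HVP and 2.46 in Normal) were also at least 2-fold higher in both libraries. Each ratio of this paragraph was larger in the library labelled HVP, and the levels of *ANGPT1* and *GUCY1A1* in members themselves were close, at 49.1 CPM in HVP and 49.0 CPM in Normal, and 84.8 CPM in HVP and 88.7 CPM in Normal. Over the whole pericyte list the median log2 ratio, HVP over Normal, was 0.00 in members and -0.44 in the other kept barcodes. The make-up of those others differed between the libraries, as set out further on.

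A minority of pericyte markers ran the other way. *THY1*, shared with fibroblasts, was 0.316-fold in the HVP library and 0.628-fold in the Normal library, and the angiotensin receptor *AGTR1* was 0.424-fold in the HVP library and 0.461-fold in the Normal library. The aminopeptidase *ANPEP* was 0.320 in HVP and 0.536 in Normal and the ectonucleotidase *NT5E* 0.270 in HVP and 0.484 in Normal. *PLXDC1* had 8 UMIs in the members of the HVP library and 0 in those of the Normal library, beside 605 UMIs in the other kept barcodes of HVP and 313 in those of Normal. The 0 in Normal puts members at least 12.5-fold lower there, by the level that 3 UMIs would give. *STEAP4* had 1 UMI in members of the HVP library, a ratio of 0.0461-fold (0.00116 to 0.261), and 0 in members of the Normal library, beside 156 UMIs in the others of HVP and 73 in those of Normal.

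**Figure D2:**
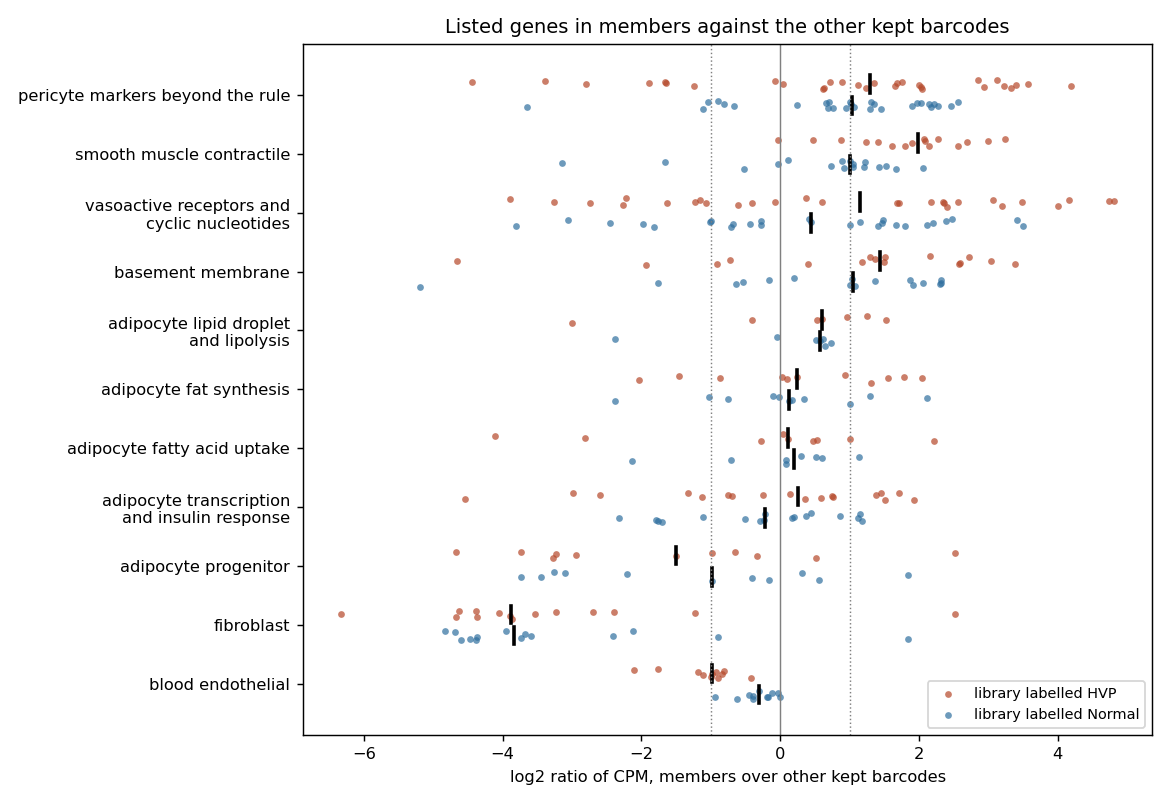
Log2 ratio of summed CPM, members over the other kept barcodes (horizontal axis), for each counted gene of 11 lists (rows), in the library labelled HVP (red, upper points of a row) and the library labelled Normal (blue, lower points). Black bars are list medians, dotted lines mark 2-fold, and a gene with 0 UMIs in members stands at the ratio that 3 UMIs would give. Pericyte markers have medians of 1.30 in HVP and 1.04 in Normal and smooth muscle genes of 1.99 in HVP and 1.00 in Normal, the lipid droplet list of adipocytes has medians of 0.60 in HVP and 0.57 in Normal, the other 3 adipocyte lists have medians from -0.22 to 0.25, and the fibroblast list lies at -3.88 in HVP and -3.84 in Normal.

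Contractile genes of smooth muscle were higher as well, and more so in the HVP library. Of 18 listed genes in the files, 13 of 16 were at least 2-fold higher and 0 at least 2-fold lower in the HVP library, and 9 higher and 2 lower of 17 in the Normal library. The median log2 ratio of the list was 1.99 in the HVP library and 1.00 in the Normal library. *LMOD1*, an actin nucleator of smooth muscle, had 636 CPM in members and 67.0 CPM in the other kept barcodes of the HVP library, and 484 CPM in members and 116 CPM in the others of the Normal library. Its ratios of 9.49 in HVP and 4.17 in Normal were the highest of the list. *DES* (desmin) was 7.94-fold in the HVP library and 2.31-fold in the Normal library, *ACTA2* (smooth muscle actin) 6.45 in HVP and 3.18 in Normal, *MYL9* (a myosin light chain) 4.23 in HVP and 2.68 in Normal, and *TAGLN* (transgelin) 3.04 in HVP and 1.89 in Normal. *MYH11*, the smooth muscle myosin heavy chain, had 1544 CPM in members and 261 CPM in the other kept barcodes of the HVP library, and 766 CPM in members and 461 CPM in the others of the Normal library. That gives ratios of 5.92 in HVP and 1.66 in Normal. Per member, *ACTA2* ran from 0 to 87 with a median of 3 UMIs in the HVP library and from 0 to 51 with a median of 1 in the Normal library. *MYH11* ran from 0 to 298 with a median of 2 in HVP and from 0 to 81 with a median of 0 in Normal. The counts of both libraries overlapped. Over the members of the main cluster alone, described further on, the *MYH11* ratio was 3.10 in HVP and 0.769 in Normal. The other kept barcodes included 222 of a contractile cluster, also described further on, in HVP and 554 in Normal.

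Against this mural set, some adipocyte genes were higher in members, and the number that were lower was near the share over all genes. Over 4 lists (lipid droplet, fat synthesis, fatty acid uptake, and transcription with insulin response) 54 of 65 listed genes were in the files, *ADIPOQ* not among them. Of the counted ones 13 of 45 were at least 2-fold higher and 10 at least 2-fold lower in the HVP library, and 7 higher and 9 lower of 43 in the Normal library. Of all counted genes 9.44% in HVP and 6.29% in Normal were higher, and 21.9% in HVP and 16.5% in Normal were lower. The 4 lists together had a median log2 ratio of 0.36 in the HVP library and 0.17 in the Normal library.

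Among the genes that members carried was *FABP4*, the fatty acid binding protein of adipocytes and of capillary endothelium. It ran from 0 to 956 with a median of 45 UMIs per member in the HVP library and from 0 to 985 with a median of 36 in the Normal library. Its level was 12155 CPM in members and 2623 CPM in the other kept barcodes of the HVP library, and 15647 CPM in members and 7145 CPM in the others of the Normal library. Per library the ratio was 4.63-fold (4.58 to 4.69) in the HVP library and 2.19-fold (2.17 to 2.21) in the Normal library. *PPARG*, the master regulator of adipocyte formation, had 258 CPM in members and 78.7 CPM in the other kept barcodes of the HVP library, and 330.5 CPM in members and 182 CPM in the others of the Normal library. These are ratios of 3.28-fold (3.05 to 3.53) in the HVP library and 1.82-fold (1.69 to 1.95) in the Normal library. A UMI of *PPARG* was seen in 56.6% of HVP members and 50.1% of Normal members. *CEBPD*, an early factor of adipocyte formation, was 3.82-fold in the HVP library and 2.17-fold in the Normal library, the early B cell factor *EBF3* 2.75 in HVP and 2.22 in Normal, and the liver X receptor *NR1H3* 2.86 in HVP and 2.26 in Normal.

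Part of the glycerolipid and sterol-response set was higher too, at low levels. *GPAM*, which starts glycerolipid synthesis, had 14.5 CPM in members and 4.21 CPM in the other kept barcodes of the HVP library, and 26.9 CPM in members and 6.25 CPM in the others of the Normal library. The ratios were 3.46-fold (2.50 to 4.72) in the HVP library and 4.31-fold (3.20 to 5.78) in the Normal library. *AGPAT2*, the next enzyme of that path, was 2.94-fold in the HVP library and 2.01-fold in the Normal library, and *SREBF1*, the regulator of lipogenic genes, 2.48 in HVP and 2.45 in Normal. *SCD*, the fatty acid desaturase, was 4.13-fold (3.22 to 5.29) in the HVP library and 1.26-fold (0.825 to 1.88) in the Normal library. *G0S2*, an inhibitor of lipolysis, was 2.89 in HVP and 1.53 in Normal and *FITM2*, of lipid droplet formation, 2.37 in HVP and 1.49 in Normal, so that these and *SCD* passed 2-fold in the HVP library but not in the Normal library. That difference was not tested.

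Several genes of a filled fat cell were nearly absent. *PLIN1*, perilipin, had 3 UMIs in the members of the HVP library and 17 in those of the Normal library, and 14 of the 17 lay in 1 barcode. *CIDEC*, which fuses lipid droplets in adipocytes, had 4 UMIs in the members of the HVP library and 16 in those of the Normal library, and 12 of the 16 lay in the same barcode, which had 7 *ADIPOQ* and 2 *RGS5* UMIs, 3 of the 5 pericyte genes and 15457 UMIs in all. Without it the members of the Normal library held 3 *PLIN1* and 4 *CIDEC* UMIs. *DGAT2*, the last step of triglyceride synthesis, had 3 UMIs in each library's members, and *GPD1*, which supplies glycerol phosphate, 0 in HVP and 1 in Normal. *THRSP*, of lipogenesis, had 0 in HVP and 1 in Normal, and *PCK1*, of glyceroneogenesis, 0 in both. *THRSPB*, a paralogue of *THRSP*, went the other way and was higher in members of both libraries, as set out further on.

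At least 1 of *PLIN1*, *CIDEC*, *DGAT2*, *GPD1*, *THRSP* and *PCK1* was seen in 9 members of the HVP library (1.13%), against 90 other kept barcodes (1.78%). In the Normal library this held for 11 members (1.80%), against 115 others (2.37%). The kept barcode with the most *PLIN1* had no *ADIPOQ* UMI in either library. In the HVP library the first and the second by *PLIN1* had 20 and 18 UMIs of it with 0 *ADIPOQ* UMIs. In the Normal library the first had 21 with 0 and the third had 9 with 0. The second there was the member with 14 *PLIN1* and 7 *ADIPOQ* UMIs. Few *PLIN1* barcodes were captured at all, and what share of the tissue's adipocytes entered the droplets was not measured.

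On the lower side stood 10 adipocyte genes in the HVP library and 9 in the Normal library, near the share over all genes counted. *CEBPA*, the partner of *PPARG* in mature adipocytes, had 2 UMIs in members of the HVP library, 0.0428-fold (0.00516 to 0.156), and 19 in members of the Normal library, 0.461-fold (0.274 to 0.732). *MGLL*, the monoglyceride lipase, was 0.125-fold in the HVP library and 0.193-fold in the Normal library, *ME1*, a source of NADPH for fat synthesis, 0.243 in HVP and 0.193 in Normal, and the insulin-responsive phosphodiesterase *PDE3B* 0.457 in HVP and 0.289 in Normal. *LPIN1* was 0.365 in HVP and 0.491 in Normal, *KLF5* 0.126 in HVP and 0.199 in Normal, *PPARGC1A* 0.398 in HVP and 0.306 in Normal, and the beta-1 adrenergic receptor *ADRB1* 0.166 in HVP and 0.294 in Normal. *APOA1*, which many avian tissues make, was 0.142 in HVP and 0.227 in Normal with 2269 CPM in members of the HVP library and 3096 CPM in those of the Normal library.

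**Figure D3:**
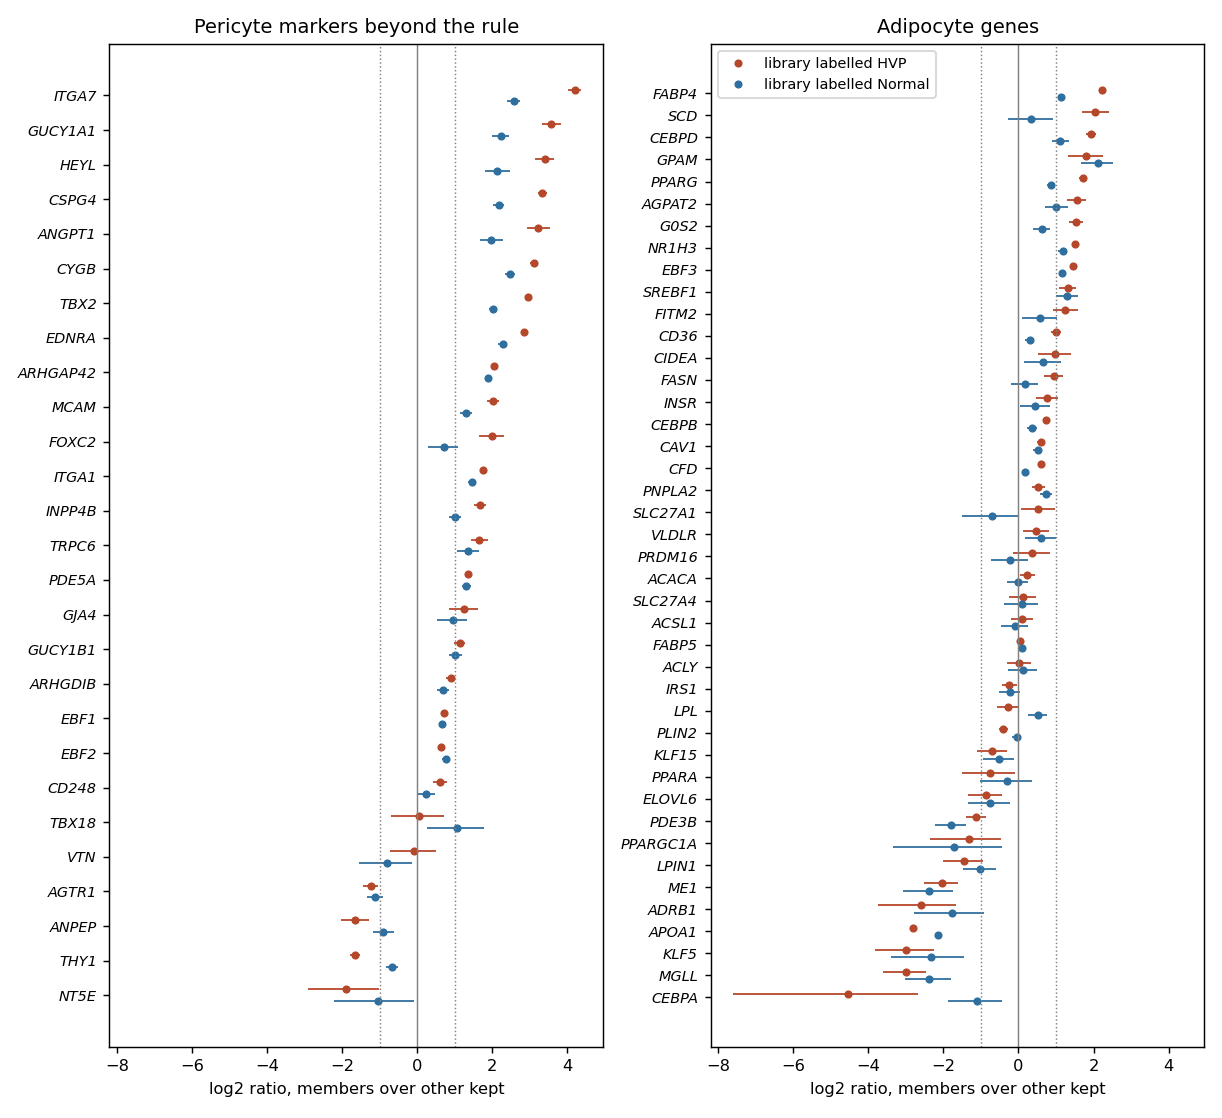
Log2 ratio of summed CPM, members over the other kept barcodes, with 95% intervals for counting error, for each pericyte marker beyond the rule (left) and each adipocyte gene but 1 (right) that was counted and had a UMI in the members of both libraries, in the library labelled HVP (red) and the library labelled Normal (blue). Dotted lines mark 2-fold. As plain ratios, *ITGA7* is the highest pericyte marker in both libraries (18.2 in HVP and 5.92 in Normal). Among adipocyte genes *FABP4* is the highest in HVP (4.63) and *GPAM* in Normal (4.31).

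By list, members over the other kept barcodes, the lipid droplet list had 2 of 7 higher and 1 lower in the HVP library, and 0 higher and 1 lower of 7 in the Normal library (medians 0.60 in HVP and 0.57 in Normal). The fat synthesis list had 4 of 11 higher and 2 lower in HVP, and 3 higher and 2 lower of 11 in Normal (medians 0.24 in HVP and 0.12 in Normal). The fatty acid uptake list had 2 of 9 higher and 2 lower in HVP, and 1 higher and 1 lower of 8 in Normal (medians 0.11 in HVP and 0.19 in Normal). The transcription and insulin list had 5 of 18 higher and 5 lower in HVP, and 3 higher and 5 lower of 17 in Normal (medians 0.25 in HVP and -0.22 in Normal). *FABP4*, *CD36* and *LPL* are also endothelial genes. Members of an endothelial-like cluster were set over those of the main cluster, both described further on. That ratio was 7.20 in HVP and 5.98 in Normal for *CD36*, and 25.3 in HVP and 19.2 in Normal for *LPL*. For *FABP4* it was 1.43 in HVP and 1.62 in Normal. *CD36*, the fatty acid translocase, was 2.01 in HVP and 1.23 in Normal over all members, but 1.46 in HVP and 0.582 in Normal over the members of the main cluster. *LPL*, lipoprotein lipase, was 0.825 in HVP and 1.43 in Normal over all members and 0.267 in HVP and 0.258 in Normal over those of the main cluster. *FABP4* (5.48 in HVP and 2.18 in Normal) and *PPARG* (3.18 in HVP and 1.51 in Normal) were above the other kept barcodes there in both libraries. Keeping barcodes with less than 5% of their UMIs from mitochondrial genes, and 300 to 4000 detected genes, which left 388 members in HVP and 311 in Normal, moved these ratios by over 1.5 times in HVP. With it *FABP4* was 13.1 in HVP and 3.59 in Normal, *PPARG* 7.12 in HVP and 2.70 in Normal, and *CD36* 5.56 in HVP and 1.81 in Normal. The endothelial-like nonmembers had a median of 10.5% mitochondrial UMIs in HVP and 7.55% in Normal, above the members' 5.06% in HVP and 4.90% in Normal.

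Genes of fibroblast-like adipocyte progenitors were low in members. Of 12 progenitor genes in the files, 1 of 11 was at least 2-fold higher and 6 at least 2-fold lower in the HVP library, and 1 higher and 5 lower of 11 in the Normal library. The list had a median log2 ratio of -1.50 in the HVP library and -0.99 in the Normal library. *PDGFRA*, the receptor that marks these progenitors, had 5.003 CPM in members and 128 CPM in the other kept barcodes of the HVP library, and 9.36 CPM in members and 125 CPM in the others of the Normal library. Members over others, this is 0.0392 in HVP and 0.0748 in Normal. *CD34* was 0.0751 in HVP and 0.117 in Normal and the matrix gene *MGP* 0.103 in HVP and 0.0920 in Normal. The 1 gene on the higher side was *TCF21*, a mesenchymal transcription factor of visceral fat stroma, at 5.72-fold in the HVP library and 3.57-fold in the Normal library, and it stands on the fibroblast list as well.

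Genes through which adiponectin acts or leaves the cell were mostly near the level of the other barcodes. Of 16 listed, 2 of 16 were at least 2-fold higher and 3 at least 2-fold lower in the HVP library, and 1 higher and 3 lower of 15 in the Normal library. Its median log2 ratio was -0.32 in the HVP library and -0.18 in the Normal library with genes at 0 set at 3 UMIs. *CDH13*, T-cadherin, which holds adiponectin on vascular cells, had 1231 CPM in members and 384 CPM in the other kept barcodes of the HVP library, and 963 CPM in members and 459 CPM in the others of the Normal library. The ratio came to 3.20 in HVP and 2.10 in Normal. The receptor *ADIPOR1* was 3.27 in HVP and 1.85 in Normal and *ADIPOR2* 1.15 in HVP and 1.03 in Normal. The adiponectin paralogue *C1QTNF2* was 0.195 in HVP and 0.235 in Normal. *C1QTNF3*, another paralogue, had 0 UMIs in members of both libraries, beside 541 UMIs in the others of HVP and 226 in those of Normal. This puts members at least 25.1-fold lower in HVP and 9.04-fold lower in Normal by the level that 3 UMIs in members would give.

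Receptors and second messengers that set vessel tone went both ways. Of 32 vasoactive genes in the files, 14 of 28 were at least 2-fold higher and 9 at least 2-fold lower in the HVP library, and 13 higher and 6 lower of 27 in the Normal library, each above the share over all genes counted. The median log2 ratio of the list was 1.15 in the HVP library and 0.45 in the Normal library. *RGS4*, which like *RGS5* shuts off G protein signals, had 1378 CPM in members and 49.2 CPM in the other kept barcodes of the HVP library, and 1143 CPM in members and 101 CPM in the others of the Normal library. That gives ratios of 28.0-fold (26.5 to 29.7) in the HVP library and 11.4-fold (10.8 to 11.999) in the Normal library. *RGS4* lies 681 bases from *RGS5*, a gene of the rule, on chromosome 8 in the RefSeq table. Its span there, 3565963 to 3692075, encloses *RGS2* (3575300 to 3578095), which is given below. Whether reads of *RGS5* or *RGS2* were counted for *RGS4* was not tested. The alpha-2 adrenergic receptors were all higher: *ADRA2B* 17.9-fold in the HVP library and 10.7-fold in the Normal library, *ADRA2C* 11.2 in HVP and 5.22 in Normal, and *ADRA2A* 8.37 in HVP and 5.57 in Normal. *PTGER2*, a prostaglandin E receptor, was 16.0 in HVP and 4.59 in Normal, and the adenylate cyclase *ADCY3* 9.18 in HVP and 4.33 in Normal. *RGS2*, which also ends G protein signals, was 5.88 in HVP and 3.47 in Normal, the angiotensin receptor *AGTR2* 4.51 in HVP and 2.78 in Normal, the cGMP kinase *PRKG1* 3.29 in HVP and 2.64 in Normal, and the phosphodiesterase *PDE3A* 3.22 in HVP and 2.77 in Normal. On the lower side were the natriuretic peptide clearance receptor *NPR3* (0.104 in HVP and 0.0711 in Normal) and the phosphodiesterase *PDE4D* (0.322 in HVP and 0.255 in Normal).

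For the other potassium channels and calcium handling genes, 3 of 12 were at least 2-fold higher and 1 at least 2-fold lower in the HVP library, and 2 higher and 1 lower of 12 in the Normal library. The list had a median log2 ratio of 0.74 in the HVP library and 0.39 in the Normal library. *ITPR1*, the calcium release channel of contractile cells, was 2.63 in HVP and 2.64 in Normal. For PDGF, Notch and angiopoietin genes, 8 of 20 were at least 2-fold higher and 4 at least 2-fold lower in the HVP library, and 5 higher and 2 lower of 19 in the Normal library. Its median log2 ratio was -0.09 in the HVP library and 0.23 in the Normal library. The Notch receptor *NOTCH2* was 3.86 in HVP and 2.69 in Normal, its ligand *JAG1* 3.64 in HVP and 2.92 in Normal, the target *HEY2* 4.75 in HVP and 2.76 in Normal, and the sphingosine phosphate receptor *S1PR3* 4.23 in HVP and 4.13 in Normal. *PDGFB*, the ligand that endothelium sends to *PDGFRB*, was 0.288 in HVP and 0.876 in Normal.

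Basement membrane genes were mostly higher. In this list 11 of 16 were at least 2-fold higher and 2 at least 2-fold lower in the HVP library, and 10 higher and 2 lower of 16 in the Normal library. The median log2 ratio of the list was 1.43 in the HVP library and 1.05 in the Normal library. *COL4A1* and *COL4A2*, the chains of the common collagen IV, were both higher. *COL4A1* had 5469 CPM in members and 920.1 CPM in the others of the HVP library, and 5330.4 CPM in members and 1419.7 CPM in the others of the Normal library. *COL4A2* had 2643 CPM in members and 438 CPM in the others of the HVP library, and 2529.9 CPM in members and 694 CPM in the others of the Normal library. The laminin chain *LAMA5* was 10.4-fold in the HVP library and 4.99-fold in the Normal library, agrin (*AGRN*) 8.23 in HVP and 5.004 in Normal, *COL18A1* 6.62 in HVP and 4.95 in Normal, and nidogen 2 (*NID2*) 4.47 in HVP and 4.17 in Normal. The laminin chain *LAMA2* was 0.0397 in HVP and 0.0272 in Normal, and *SPARC*, a collagen-binding matrix protein, 0.262 in HVP and 0.296 in Normal.

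Outside the rule, of genes with a minimum of 100 UMIs in each library's members, *COL28A1*, a beaded-filament collagen chain, had the largest ratio in both libraries. Of genes below that minimum in at least 1 library, *SST1* (somatostatin) had a larger ratio in the HVP library, at 74.2-fold from 227 UMIs in 26 members, and *ADM2*, a vasodilator peptide gene named after its values were seen, had a larger one in the Normal library, at 19.01-fold from 89 UMIs. *COL28A1* ran from 0 to 91 with a median of 8 UMIs per member in the HVP library and from 0 to 57 with a median of 5 in the Normal library, and 87.7% of HVP members and 84.5% of Normal members had a UMI. Its level was 1990.5 CPM in members and 32.8 CPM in the other kept barcodes of the HVP library, and 1579 CPM in members and 90.5 CPM in the others of the Normal library. Per library the ratio was 60.7-fold (56.8 to 64.9) in the HVP library and 17.4-fold (16.5 to 18.4) in the Normal library. *COL28A1* lies on chromosome 2, 24613683 to 24679468. Among the 15 such genes with the largest ratio, ranked by the lower of both libraries, came also the semaphorin *SEMA6B* (36.0 in HVP and 13.7 in Normal), *RGS4*, *PPP1R17*, a regulator of protein phosphatase 1 (30.2 in HVP and 11.2 in Normal), and *GUCY1A2*, a second nitric oxide receptor chain (24.7 in HVP and 11.4 in Normal). *ADRA2B*, the connexin *GJC3* (22.2 in HVP and 9.53 in Normal), the chondroitin sulfate sulfotransferase *CHST15* (15.5 in HVP and 11.6 in Normal) and *KCNE4*, an accessory subunit of potassium channels (13.2 in HVP and 9.65 in Normal), completed the named ones, and the other 6 were gene models with no symbol.

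Among the 10 genes with the lowest ratios, 9 had 0 UMIs in members of both libraries, *C1QTNF3* among them. *WNT11*, a Wnt ligand, was at least 13.7-fold lower in the HVP library and 5.44-fold lower in the Normal library, by the same limit of 3 UMIs. *UGT8*, of myelin lipid synthesis, was at least 10.9-fold lower in HVP and 4.68-fold lower in Normal, and *XCL1*, a lymphocyte chemokine, at least 4.68-fold lower in HVP and 11.8-fold lower in Normal. *SFRP5*, a secreted Wnt inhibitor, *PRDM8*, *MARCH1*, *C6H10ORF71* and 1 gene model with no symbol were the others at 0, and *PTPRZ1*, a receptor phosphatase, had 2 UMIs in HVP members and 1 in Normal members, ratios of 0.0159-fold (0.00192 to 0.0576) in the HVP library and 0.0149-fold (0.000377 to 0.0834) in the Normal library.

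Set against the other kept barcodes with at least 2 of the 5 pericyte genes (723 labelled HVP and 732 labelled Normal), members were again compared gene by gene. This set differed in make-up between the libraries: 458 in HVP and 227 in Normal had no *ADIPOQ* UMI, and 265 in HVP and 505 in Normal had 1 to 4. In HVP those with none had 399 CPM of *RGS5* and 23.5 CPM of *COL28A1*. Those with 1 to 4 had 2006 CPM of *RGS5* and 381 CPM of *COL28A1* there. Of all genes counted against this set, 9.31% in HVP and 3.26% in Normal were at least 2-fold higher in members. The 10 largest ratios included *CHST15* (9.77 in HVP and 7.05 in Normal) and *COL28A1* (15.4 in HVP and 4.30 in Normal). *PROCR*, the endothelial protein C receptor, was 18.97 in HVP and 9.63 in Normal. It had 322 CPM in members and 27.0 CPM in all other kept barcodes of the HVP library, and 193 CPM in members and 21.7 CPM in the others of the Normal library. *THRSPB*, a chicken paralogue of the lipogenesis gene *THRSP*, was 9.15 in HVP and 4.19 in Normal. It had 286 CPM in members and 29.01 CPM in all other kept barcodes of the HVP library, and 307 CPM in members and 48.8 CPM in the others of the Normal library. *PFKL*, a phosphofructokinase of glycolysis, was 5.44 in HVP and 4.11 in Normal, and *RDH5*, a retinol dehydrogenase, 6.49 in HVP and 3.64 in Normal, beside 4 gene models with no symbol. In the RefSeq table *PFKL* (chromosome 9, 4040060 to 4045514) lies close to *PROCR* (4037845 to 4039622). Whether reads of one of them were counted for the other was not tested. *FABP4* was 4.34 in HVP and 1.79 in Normal, *PPARG* 2.81 in HVP and 1.15 in Normal and *ACTA2* 2.40 in HVP and 0.979 in Normal in the same comparison.

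Markers of the other cell types in the tissue were lower in members or near the level of the rest. Fibroblast genes had 1 higher and 13 lower of 14 in the HVP library, and 1 higher and 12 lower of 14 in the Normal library (medians -3.88 in HVP and -3.84 in Normal, with *TCF21* the higher one). *COL1A1*, the main fibrillar collagen chain, was 0.0673 in HVP and 0.0452 in Normal with 2874 CPM in HVP members and 1205 CPM in Normal members. Per member *COL1A1* ran from 0 to 989 with a median of 3 UMIs in HVP, and from 0 to 239 with a median of 2 in Normal. Its upper quartile was 6 UMIs in HVP and 4 in Normal, so a minority of members with high counts weighs on these sums. Tenocyte genes had 0 higher and 9 lower of 9 in the HVP library, and 0 higher and 7 lower of 8 in the Normal library (medians -3.51 in HVP and -3.61 in Normal). Melanocyte genes had 0 higher and 9 lower of 10 in the HVP library, and 0 higher and 9 lower of 10 in the Normal library (medians -3.49 in HVP and -3.46 in Normal with genes at 0 set at 3 UMIs). The exception was *MITF*, a transcription factor that many cell types express (1.32 in HVP and 1.27 in Normal).

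Blood endothelial genes had 0 higher and 4 lower of 11 in the HVP library, and 0 higher and 0 lower of 11 in the Normal library, with medians of -0.99 in HVP and -0.30 in Normal. *PECAM1*, the endothelial junction protein, had 459 CPM in members and 617 CPM in the other kept barcodes of the HVP library, and 1135 CPM in members and 1232 CPM in the others of the Normal library. These are ratios of 0.744 in HVP and 0.921 in Normal, and *CDH5*, VE-cadherin, was 0.294 in HVP and 0.760 in Normal. The listed endothelial genes together made up 0.111% of the UMIs of members and 0.198% of those of the others in the HVP library, and 0.281% of those of members and 0.317% of those of the others in the Normal library. UMIs of at least 2 of *PECAM1*, *CDH5*, *KDR* and *TIE1* were seen in 49 members of the HVP library (6.14%) and 22.6% of its other kept barcodes. They were seen in 74 members of the Normal library (12.1%) and 27.7% of its others. With these members left out, the median log2 ratio of the adipocyte genes in the Normal library was -0.03 in place of 0.17.

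Myeloid genes had 1 higher and 6 lower of 9 in the HVP library, and 1 higher and 7 lower of 9 in the Normal library (medians -1.87 in HVP and -2.87 in Normal). The higher one was *CSF1R*, the receptor of macrophage growth factor, with 228 CPM in members and 24.7 CPM in the other kept barcodes of the HVP library, and 159 CPM in members and 39.0 CPM in the others of the Normal library. The ratios were 9.24 in HVP and 4.09 in Normal. The macrophage genes *C1QA*, *C1QB* and *C1QC* had 4, 3 and 5 UMIs in members of the HVP library and 1 each in members of the Normal library. *CSF1R* starts 2458 bases past the end of *PDGFRB* in the RefSeq table, and whether reads of one gene were counted for the other was not tested.

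The smaller lists were as follows. Lymphatic endothelial genes had 0 higher and 4 lower of 7 in the HVP library, and 0 higher and 4 lower of 6 in the Normal library (medians -2.07 in HVP and -1.54 in Normal). T cell genes had 0 higher and 3 lower of 4 in the HVP library, and 0 higher and 2 lower of 4 in the Normal library (medians -2.31 in HVP and -1.54 in Normal). Schwann genes had 0 higher and 3 lower of 4 in the HVP library, and 0 higher and 2 lower of 3 in the Normal library (medians -4.35 in HVP and -2.41 in Normal). Satellite cell genes had 0 higher and 2 lower of 2 in the HVP library, and 0 higher and 3 lower of 3 in the Normal library (medians -4.04 in HVP and -2.79 in Normal). Skeletal muscle genes had 0 higher and 0 lower of 1 in the HVP library, and 0 higher and 3 lower of 3 in the Normal library (medians -0.04 in HVP and -4.55 in Normal). Erythroid genes had 0 higher and 0 lower of 2 in the HVP library, and 0 higher and 4 lower of 4 in the Normal library (medians 0.37 in HVP and -5.03 in Normal). In all of these medians genes at 0 were set at 3 UMIs. Mesothelial genes had 1 higher and 1 lower of 2 in the HVP library, and 1 higher and 0 lower of 2 in the Normal library (medians -0.04 in HVP and 0.30 in Normal), the higher one being the transcription factor *WT1* (2.10 in HVP and 2.19 in Normal). Cycling genes had 0 higher and 2 lower of 4 in the HVP library, and 0 higher and 1 lower of 4 in the Normal library (medians -1.13 in HVP and -0.63 in Normal). Genes that respond to tissue dissociation had 4 higher and 4 lower of 17 in the HVP library, and 0 higher and 2 lower of 16 in the Normal library (medians 0.48 in HVP and 0.33 in Normal). Mitochondrial genes had 0 higher and 0 lower of 9 in the HVP library, and 0 higher and 0 lower of 9 in the Normal library (medians -0.02 in HVP and 0.01 in Normal). These 9 made up 1.99% of member UMIs in HVP and 1.88% in Normal. The shares of mitochondrial UMIs given earlier, higher in members, rest on 13 genes with a mitochondrial symbol.

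Depth differs between barcodes, so shares of barcodes with a UMI were also taken after thinning each barcode to 2000 UMIs, which left out 5 members and 75 others of the HVP library and 7 members and 182 others of the Normal library. Blood endothelial-like barcodes that were not members were taken for comparison. After thinning, *ADIPOQ* was seen in 97.2% of members and 9.87% of endothelial-like barcodes that were not members in the HVP library, and in 96.7% of members and 15% of such barcodes in the Normal library. The rule shaped both sides, so these shares are given for size only. It requires *ADIPOQ* UMIs of members, and it took 50 barcodes in HVP and 71 in Normal out of the endothelial-like set. Unthinned, the endothelial-like shares were 15.4% in HVP and 23.5% in Normal, at median depths of 3955 UMIs in HVP and 4023 UMIs in Normal. In clusters with *WNT2* among their leading genes, 2.26% of nonmembers in HVP and 3.26% in Normal had an *ADIPOQ* UMI. In the melanocyte-gene clusters 20.9% in HVP and 1.61% in Normal had one. The endothelial-like set is thus no *ADIPOQ*-free background, and the source of its *ADIPOQ* UMIs was not tested.

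Members and the same endothelial-like set were compared for other genes. *CSPG4*, a pericyte marker that the rule did not use, was seen in 48.5% of members and 2.19% of endothelial-like barcodes in the HVP library, and in 36.9% of members and 4.49% of endothelial-like barcodes in the Normal library. *ITGA7* was seen in 39.2% of members and 2.89% of endothelial-like barcodes in HVP, and in 32.3% of members and 3.98% of endothelial-like barcodes in Normal. *RGS5*, which the rule used, was seen in 97.6% of members and 11.9% of endothelial-like barcodes in the HVP library, and in 92.1% of members and 14.7% of endothelial-like barcodes in the Normal library. *COL28A1* was seen in 79.8% of members and 7.18% of endothelial-like barcodes in HVP, and in 76.5% of members and 14.8% of endothelial-like barcodes in Normal. *PPARG* was seen in 36.2% of members and 33.5% of endothelial-like barcodes in the HVP library, and in 35.3% of members and 45.9% of endothelial-like barcodes in the Normal library, so it did not set members apart from that cell type. *FABP4* was seen in 90.4% of members and 74.3% of endothelial-like barcodes in HVP, and in 93.2% of members and 85.3% of endothelial-like barcodes in Normal. *CD36* was less frequent in members (15.9% in HVP and 18.9% in Normal) than in endothelial-like barcodes (33.5% in HVP and 54.0% in Normal). *PLIN1* was seen in 0.126% of members and 0.0801% of the other kept barcodes labelled HVP, and in 0.497% of members and 0.257% of the others labelled Normal.

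**Figure D4:**
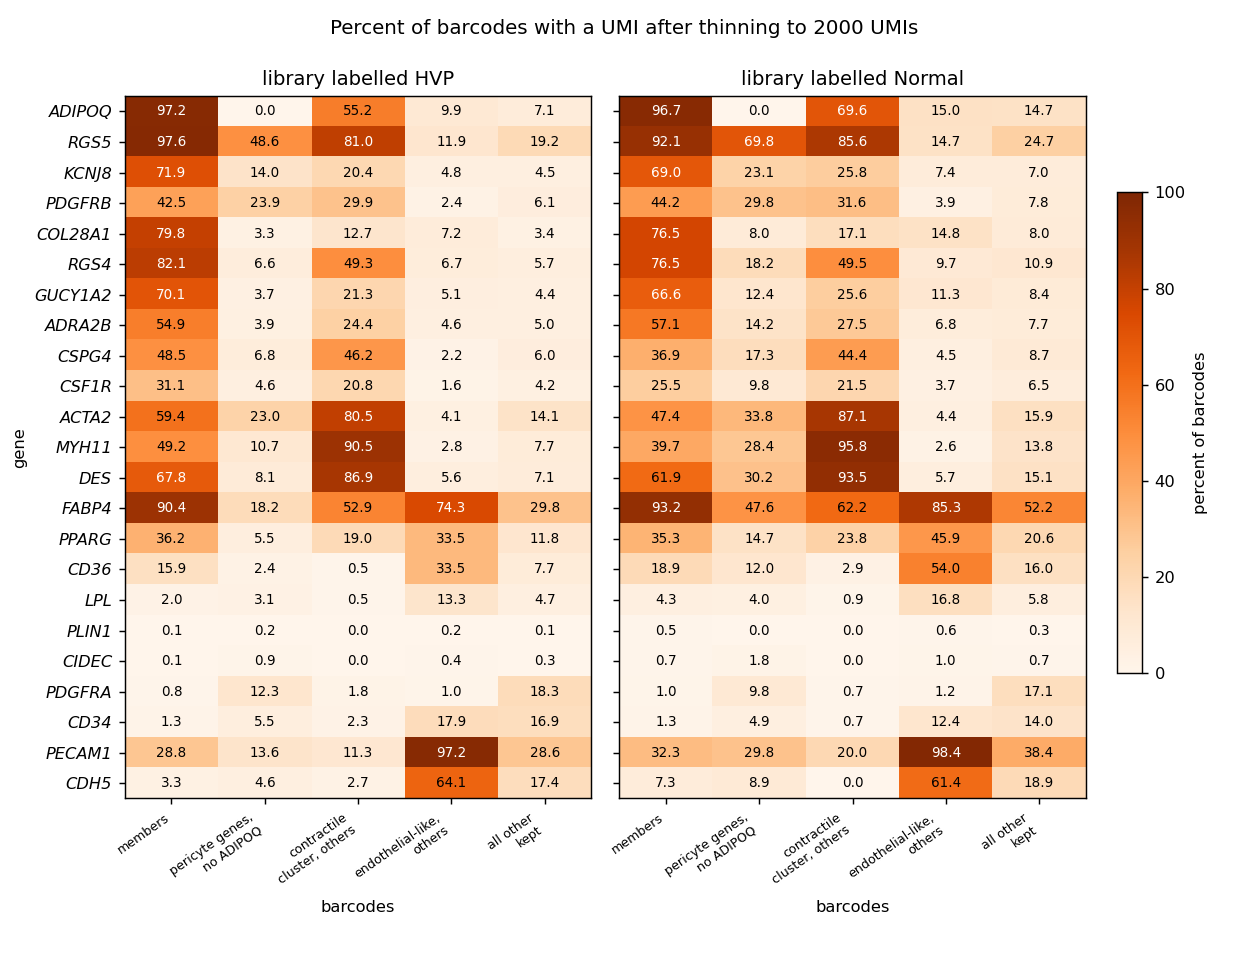
Percent of barcodes with a UMI of each gene (rows) after each barcode was thinned to 2000 UMIs, in members and in 4 sets of other kept barcodes (columns), for the library labelled HVP (left) and the library labelled Normal (right). Darker cells are higher shares, and the number in each cell is the percent. *ADIPOQ*, *RGS5* and *COL28A1* stand out in members, *MYH11* is most frequent in the contractile cluster, *FABP4* and *PPARG* are frequent in members and in endothelial-like barcodes, and *PLIN1* is at most 0.593% in the sets shown.

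Summed over members grouped by their *ADIPOQ* count, *RGS5* and *COL28A1* were higher in the groups with more *ADIPOQ*. *ADIPOQ* and *RGS5* are genes of the rule that chose the members, so these values are descriptions. In members with 5 to 9, 10 to 19 and at least 20 *ADIPOQ* UMIs (253, 286 and 259 in the HVP library), *RGS5* stood at 3277, 6218 and 7107 CPM and *COL28A1* at 1114, 2146 and 2661 CPM. In the Normal library (278, 252 and 81 members) *RGS5* stood at 2848, 4946 and 6215 CPM and *COL28A1* at 1181, 1810.2 and 2286 CPM. *PPARG* ran the other way, at 326, 246 and 206 CPM in the HVP library and 399.6, 271 and 261 CPM in the Normal library, and so did *PECAM1*, at 929, 237 and 228 CPM in HVP and 1589, 819 and 474 CPM in Normal. *FABP4* stood at 10997, 11957 and 13417 CPM in HVP, and at 16405, 15360 and 13879 CPM in Normal, an opposite order. Of the *PLIN1* UMIs, 0, 1 and 2 lay in these ranges in the HVP library and 16, 1 and 0 in the Normal library. All are sums over members of 1 library and share its barcodes. The ranges also mix clusters, described further on. Members of the endothelial-like cluster had median *ADIPOQ* counts of 6.5 UMIs in HVP and 7 in Normal, against 18 in HVP and 12 in Normal in the main cluster. The order within a single cluster was not taken.

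The *ADIPOQ* counts of other barcodes were set against those of the genes that led the members. Members held 1.59 *ADIPOQ* UMIs per *COL28A1* UMI and the other kept barcodes 1.46 in the HVP library, and 1.73 in members and 1.21 in the others of the Normal library. Per *RGS5* UMI the ratio was 0.568 in members and 0.201 in the others labelled HVP, and 0.662 in members and 0.321 in the others labelled Normal. The rule fixes a minimum of *ADIPOQ* UMIs for members, so these values are descriptions and nothing is read from their order. Nonmembers with an *ADIPOQ* UMI were unevenly spread over clusters built without the 6 genes of the rule, which the next paragraph describes: 92.2% of the nonmembers of the main cluster in HVP and 94.6% in Normal had one, as had 79.7% of those of the contractile cluster in HVP and 82.1% in Normal. In the clusters outside these and the endothelial-like one the shares were 0 to 20.9% in HVP and 0 to 14.9% in Normal.

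When each library was clustered without the 6 genes of the rule, most members still fell together. The main cluster held 585 of 798 members of the HVP library (73.3%), which were 88.4% of its 662 barcodes, and 407 of 611 members of the Normal library (66.6%), which were 81.4% of its 500. A contractile cluster held 141 members of the HVP library (17.7%) and 111 of the Normal library (18.2%). They were 38.8% of its 363 barcodes in HVP and 16.7% of its 665 in Normal. The contractile cluster was picked, outside the main cluster, for having the most smooth muscle genes at least 2-fold higher than in the rest. That count was 16 of the 18 in both libraries and follows from the choice. In the main cluster 14 of the 18 were higher in HVP and 5 in Normal. In the Normal library skeletal muscle genes led the contractile cluster, so it carries no cell type name. The blood endothelial-like cluster was likewise picked for the most listed blood endothelial genes at least 2-fold higher than in the rest, 11 of 12. It held 50 members of the HVP library (6.27%) and 71 of the Normal library (11.6%), and the remaining clusters held 22 in each. Clusters and members come from the same counts, so the differences between them are descriptions.

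Members of the contractile cluster carried less *ADIPOQ* and far less *FABP4* than members of the main cluster. Contractile over main, *ADIPOQ* was 0.390 in HVP and 0.564 in Normal, *FABP4* 0.152 in HVP and 0.239 in Normal, *COL28A1* 0.246 in HVP and 0.242 in Normal, *RGS5* 0.510 in HVP and 0.551 in Normal and *PPARG* 0.838 in HVP and 0.686 in Normal. *MYH11* was 6.25 in HVP and 9.88 in Normal, *ACTA2* 1.84 in HVP and 2.53 in Normal and *CSPG4* 1.34 in HVP and 1.24 in Normal. Their median *ADIPOQ* count was 7 UMIs in the HVP library and 7 in the Normal library, against 18 in HVP and 12 in Normal in the main cluster.

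Members of the endothelial-like cluster were deeper and carried the endothelial and fatty acid uptake genes. Their median depth was 6553 UMIs and 2618 genes in the HVP library and 8566 UMIs and 3194 genes in the Normal library, against 4731 UMIs and 1854 genes in HVP and 3364 UMIs and 1498 genes in Normal for members of the main cluster. Their median Scrublet doublet scores were 0.0808 in HVP and 0.0547 in Normal, against 0.0155 in HVP and 0.0106 in Normal. Endothelial-like over main, *PECAM1* was 13.8 in HVP and 15.7 in Normal, *PPARG* 1.96 in HVP and 2.04 in Normal, *FABP4* 1.43 in HVP and 1.62 in Normal, *ADIPOQ* 0.282 in HVP and 0.222 in Normal, *RGS5* 0.333 in HVP and 0.153 in Normal and *COL28A1* 0.502 in HVP and 0.347 in Normal. Members of the remaining clusters, 22 in each library, had higher median Scrublet scores, 0.331 in HVP and 0.203 in Normal. In the Normal library Scrublet called 10 of these 22 members, 1 of the 71 of the endothelial-like cluster and 3 of the 407 of the main cluster. In the HVP library it called too few barcodes to be read. Beyond these scores and calls, whether the members of either set are droplets with more than 1 cell was not tested.

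Members of the main cluster had few endothelial counts, and most of those were of *PECAM1*. It made up 605 of their 826 UMIs of listed blood endothelial genes in HVP and 346 of 496 in Normal. In these members *PECAM1* stood at 212 CPM in the HVP library and 241 CPM in the Normal library. Over all nonmembers it stood at 617 CPM in HVP and 1232 CPM in Normal. *CDH5* stood at 1.40 CPM in HVP and 6.28 CPM in Normal in members of the main cluster. There *FABP4* stood at 14378 CPM in HVP and 15562 CPM in Normal, while endothelial-like nonmembers had 13487 CPM in HVP and 22391 CPM in Normal. *PPARG* stood at 250.5 CPM in HVP and 275 CPM in Normal, *CD36* at 99.3 CPM in HVP and 124 CPM in Normal, and *LPL* at 9.47 CPM in HVP and 10.5 CPM in Normal. Over the other kept barcodes, the ratio of these members was 10.1 in HVP and 5.24 in Normal for *CSPG4* and 20.6 in HVP and 8.35 in Normal for *ITGA7*. The adipocyte genes of the same comparison were at 3.15 in HVP and 2.77 in Normal for *EBF3*, 3.36 in HVP and 2.56 in Normal for *NR1H3* and 4.59 in HVP and 5.36 in Normal for *GPAM*.

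Members of the library labelled HVP were then set against members of the library labelled Normal. Of 10434 genes with at least 10 UMIs expected in each, 2.16% were at least 2-fold higher and 4.72% at least 2-fold lower in the HVP library. No pericyte marker of 26 was at least 2-fold higher and 1, *ANPEP* (0.355, 0.257 to 0.487), was at least 2-fold lower, with a median log2 ratio of 0.00 in members and -0.44 in the other kept barcodes. The ratio of *ADIPOQ* was 1.16 (1.13 to 1.19) in members and 0.437 in the others, and that of *RGS5* 1.35 (1.32 to 1.38) in members and 0.697 in the others. With the members of the endothelial-like cluster left out, *ADIPOQ* was 0.995 and *RGS5* 1.13, so the direction of *ADIPOQ* between the libraries did not hold. The limit of 5 *ADIPOQ* UMIs is a count and the Normal library was shallower, so a difference in depth and a difference in level cannot be told apart near the limit.

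By list median, smooth muscle genes leaned to the HVP library in members and to the Normal library in the others. The others held 222 nonmembers of the contractile cluster in the HVP library and 554 in the Normal library. What this adds to the ratios of these genes was not tested. Of 16 counted, 3 were at least 2-fold higher, with medians of 0.49 in members and -0.41 in the others. *MYH11* was 2.01 (1.92 to 2.12) in members and 0.566 in the others, and *ACTG2*, enteric smooth muscle actin, 2.50 (2.31 to 2.72) in members and 1.33 in the others. Adipocyte genes had 2 higher and 3 lower of 39 (median -0.12 in members and -0.23 in the others), with *FABP4* at 0.777 (0.767 to 0.787) in members and 0.367 in the others, and *PPARG* at 0.781 (0.714 to 0.855) in members and 0.432 in the others. Basement membrane genes had 0 of 17 past 2-fold (median 0.18 in members and -0.13 in the others), and vasoactive genes 1 higher and 1 lower of 26 (median 0.22 in members and -0.52 in the others).

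Blood endothelial genes were lower in the HVP members. Of 11 counted, 10 were at least 2-fold lower in the HVP library (median -1.35 in members and -0.53 in the others). *CDH5* was 0.280 (0.230 to 0.340), *PECAM1* 0.404 (0.381 to 0.428) and *VWF*, von Willebrand factor, 0.387 (0.361 to 0.415). Members with at least 2 of 4 endothelial genes were 6.14% of the HVP members and 12.1% of the Normal members, and without them the genes past 2-fold between the libraries came to 359 in place of 718, with 57.4% of them higher in HVP in place of 31.3%.

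Tenocyte and fibroblast genes were higher in the HVP members, with 3 of 6 tenocyte genes (median 1.44, and 1.01 in the others) and 4 of 13 fibroblast genes (median 0.25 in members and 0.54 in the others) at least 2-fold higher. Of the 8 largest ratios among genes with at least 50 UMIs expected, 7 were of genes that members carried below the level of the other kept barcodes: the small proteoglycan *FMOD* 5.73 (3.90 to 8.72), the collagen chain *COL11A1* 5.26 (3.52 to 8.16), and thrombospondin 2 (*THBS2*) 5.13 (3.55 to 7.66). The others were *NRN1* 4.23 (2.63 to 7.15), *SPON2* 3.73 (2.78 to 5.07), the growth factor *PTN* 3.34 (2.29 to 5.001), and *KAZALD1* 3.29 (2.52 to 4.36). In the other kept barcodes the same genes were 1.44 to 2.32. The largest ratio was that of *SST1* at 13.1 (7.20 to 26.7), and 1.25 in the others, from 227 UMIs in 26 members of the HVP library, 79 of them in 1 barcode, and 11 UMIs in 4 members of the Normal library.

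On the lower side stood, with 1 gene model, the acute phase protein *SAA* (0.0628, 0.0343 to 0.107, and 0.215 in the others) and the water channel *AQP3* (0.167, 0.131 to 0.211, and 0.322 in the others). Next came the transporter *SLC4A11* (0.180, 0.127 to 0.251, and 0.587 in the others) and *CCDC85C* (0.192, 0.157 to 0.233, and 0.447 in the others). The MHC class II chains *BLB1* (0.208, 0.158 to 0.270, and 0.419 in the others) and *BLB2* (0.211, 0.188 to 0.238, and 0.369 in the others) were also lower, as was the potassium channel *KCNQ1* (0.215, 0.190 to 0.244, and 0.487 in the others). In members of the main cluster alone *SAA* was 0.0413, *BLB2* 0.317, *KCNQ1* 0.454, *AQP3* 0.335 (0.0696 to 1.41) and *CCDC85C* 0.934 (0.470 to 1.93), so that the intervals of the last 2 genes include 1.

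**Figure D5:**
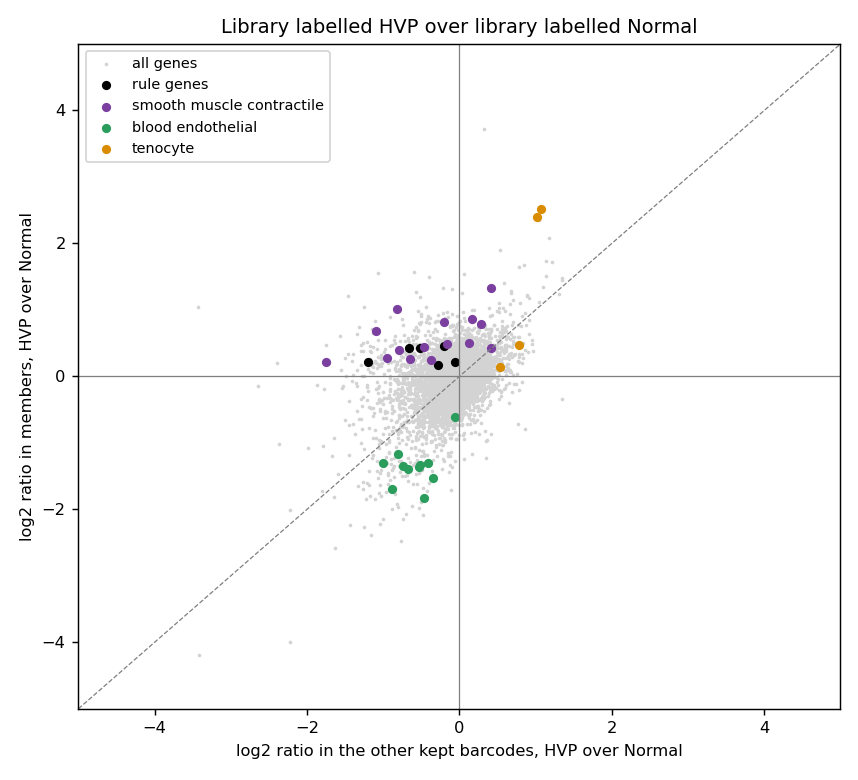
Log2 ratio of CPM, library labelled HVP over library labelled Normal, in members (vertical axis) and in the other kept barcodes (horizontal axis), for genes with at least 50 UMIs expected in the members of each library (grey), with rule genes in black and 3 lists coloured. The dashed line marks equal ratios. Blood endothelial genes (green) lie under 0 in members, with a list median of -1.35 against -0.53 in the others, smooth muscle genes (purple) lie above 0 in members, and in the others their list median is -0.41, and tenocyte genes (orange) lie above 0 on both axes.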

How the data were processed

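Peritoneal cells of both groups were captured with the 10x 3' v3.1 chemistry, 1 library per group. The authors deposited UMI counts per gene and barcode (29558 genes), made with Cell Ranger 7.1.0 and its aligner STAR on the GRCg7b assembly, to which they added the mitochondrial genes, and these filtered matrices were used as deposited. Barcodes with more than 1000 genes were kept, and members were taken by the rule given in the opening. For each gene the UMIs of members and of the other kept barcodes were summed and divided by the total UMIs of each set, as CPM. Ratios carry 95% conditional binomial intervals, shares 95% Clopper-Pearson intervals, and both cover counting error only. A gene was counted when its share over all kept barcodes would give members at least 10 UMIs, and a 2-fold difference was the limit for calling it higher or lower. With 1 library per group there was no test between the groups, and the choice of members by their counts allowed none against the other barcodes.

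The members and the 28 gene lists were chosen with earlier results of these data known. Named genes were the 6 genes of the rule, 2 to 6 or more examples per list by ratio, the 15 largest (with at least 100 UMIs in the members of each library) and 10 smallest ratios, the 10 largest against other barcodes with the pericyte genes, and the 8 highest and 8 lowest ratios between the libraries. The values of 1 listed adipocyte gene are not reported here, and the counts and medians of its list include it. Each library was clustered with Seurat 5.3.0 in R 4.3.3 (2000 variable genes without the 6 genes of the rule, 20 principal components, resolution 0.2). Scrublet, run in scanpy 1.11.5, called 5 of 7157 HVP barcodes (0.0699%), too few to have worked, and 155 of 6981 Normal barcodes (2.22%), so doublets were kept, and leaving out the highest 5% of scores was an alternative. The other alternatives changed the limits on genes, *ADIPOQ* UMIs, pericyte genes and mitochondrial share, the scaling, the depth (thinning to 2000 UMIs) and the minimum of expected UMIs. Sums, intervals and figures were made in Python 3.11.15 with NumPy 2.4.6, SciPy 1.17.1, pandas 2.3.3 and matplotlib 3.10.9, and the sums and ratios were tested on simulated data. Gene positions came from the RefSeq table of GRCg7b. Of the 14186 symbols in the counts, 12702 were unique both there and in that table.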

Additional observations from a re-analysis of the deposited data

Results flagged for a closer look

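3 genes had intervals on opposite sides of 1 in the 2 libraries when members were set over the other kept barcodes, and the difference itself was not tested. *LPL*, lipoprotein lipase, was 0.825 in HVP and 1.43 in Normal. *SLC27A1*, a fatty acid transporter, was 1.44 in HVP and 0.610 in Normal, and *COL4A6*, a collagen IV chain, 1.32 in HVP and 0.689 in Normal. In members of the main cluster alone *LPL* was 0.267 in HVP and 0.258 in Normal, *SLC27A1* 1.77 in HVP and 1.00 in Normal, and *COL4A6* 0.404 in HVP and 0.249 in Normal. Outside the kept barcodes, among those with at most 1000 genes, 7 of 1291 in HVP and 23 of 1517 in Normal met the rest of the rule, with at least 5 *ADIPOQ* UMIs and 2 of the pericyte genes.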

How the results depend on the processing

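No paired analysis was possible because each group had 1 library, and no replicate could be left out. In all settings run, the medians of the pericyte markers stayed above 0 in both libraries and those of the adipocyte genes above 0 in HVP (0.11 to 0.66). In Normal the adipocyte median of 0.17 was 0.30 with more than 1500 genes, 0.24 with 300 to 4000 genes and under 5% mitochondrial UMIs, 0.25 and 0.075 with at least 3 and 10 *ADIPOQ* UMIs, 0.25 with the trimmed mean of M values and 0.37 with the median of ratios, 0.10 with no minimum of expected UMIs, 0.038 in the main cluster, and -0.030 with members with 2 endothelial genes left out and -0.025 with those of the endothelial-like cluster left out. It was -0.086 as a mean over cells and -0.12 after thinning. The median of ratios takes the log2 ratios of -0.28 in HVP and -0.20 in Normal as no difference, and the trimmed mean of M values those of -0.14 in HVP and -0.088 in Normal, so ratios under them were higher by these sizes. The pericyte median was 2.02 in HVP and 1.55 in Normal with the mitochondrial filter, and in HVP 1.04 with at least 10 *ADIPOQ* UMIs, 1.58 with the median of ratios and 1.67 with at least 50 expected UMIs. Members numbered 388 in HVP and 311 in Normal with the mitochondrial filter, and in Normal 348 with more than 1500 genes, 333 with at least 10 *ADIPOQ* UMIs and 407 in the main cluster. Genes at least 2-fold higher came to 2913 in HVP and 2513 in Normal with no minimum, and to 462 in Normal with at least 50 expected UMIs. Genes past 2-fold between the libraries, 718, came to 461 with the mitochondrial filter, 359 without members with 2 endothelial genes, 365 after thinning, 5990 with no minimum, 199 with at least 50 expected UMIs, 317 in the main cluster and 361 without the endothelial-like cluster. With the mitochondrial filter *ANPEP* (1.01), *KDR* (1.16) and *SLC4A11* (1.82) were above 1 in HVP, on the other side from the main value. The causes were not tested. The main cluster, the endothelial-like cluster and the *PLIN1* barcode were left out or taken alone after the data were seen. Depth limits *PLIN1*, *CIDEC*, *DGAT2*, *GPD1*, *THRSP* and *PCK1*, which had 0 to 17 UMIs in members.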

Other observations

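*SST1* counts were concentrated in few members. Over the other kept barcodes, the ratio of *SST1* was 74.2 (47.8 to 121) in members of the HVP library and 7.05 (2.86 to 17.05) in members of the Normal library, and in members of the main cluster alone the HVP library had 8.45 times the level of the Normal library.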
